A study of Bos taurus with 8 samples.

Results

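Insulin signalling and glucose transport genes were examined in the semitendinosus, a hind leg muscle, of bulls of 3 cattle breeds. The set had 10 listed genes: the insulin receptor INSR and its adaptor IRS1, the PI3-kinase regulatory subunit PIK3R1, the kinases AKT1 and AKT2, the glucose transporters SLC2A1 and SLC2A4, the Rab GTPase-activating protein TBC1D4, and the AMPK catalytic subunits PRKAA1 and PRKAA2. A gene counted as measured when a probe carried the accession of 1 of its RefSeq transcripts and was well above background in at least 4 of the 16 channel readings. By that rule 4 of the 10 genes had a probe (SLC2A1, SLC2A4, PIK3R1 and PRKAA1), out of 7788 genes with such a probe on the array, and all 4 passed the filter, as did 6693 of the 7788. INSR, IRS1, AKT1, AKT2, TBC1D4 and PRKAA2 had no probe named in this way and were not analysed here.

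The study set muscle of 2 breeds with well-marbled beef, Hereford and Holstein-Friesian, against lean Limousin muscle. All 12 bulls were 15 months old, 4 per breed, and no treatment was named. Each of 8 two-colour arrays carried the RNA of 1 Hereford or 1 Holstein-Friesian bull and of 1 Limousin bull. Hereford was in the Cy5 dye and Limousin in Cy3 on the first slide, and Limousin was in Cy5 and Holstein-Friesian in Cy3 on the second, so that each slide confounds breed with dye. The same 4 Limousin bulls were on both slides, and the 2 breed comparisons therefore share their controls.

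In skeletal muscle, insulin binding to its receptor recruits IRS adaptors and PI3-kinase, whose lipid product activates AKT. AKT phosphorylates the Rab GTPase-activating proteins TBC1D4 and TBC1D1, which releases vesicles holding the transporter GLUT4, encoded by SLC2A4, to the cell surface. Contraction and energy stress reach the same vesicles through AMPK. GLUT1, encoded by SLC2A1, is the widespread transporter of basal glucose uptake and is present in many cell types besides muscle fibres. All values below are transcript measurements of whole muscle, in which fewer cells of a type and less RNA per cell cannot be told apart.

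Between 13944 and 17096 probes were well above background in a sample, and no spot of the arrays was saturated. Holstein-Friesian, read in Cy3, had the fewest, 13944 to 14826, beside 16214 to 16981 in Hereford and 14932 to 17096 in Limousin. Its median background-subtracted brightness was 30.5 to 46.75 units, against 97 to 117.5 for Limousin on the same arrays. The log2 ratios of the first Hereford array correlated less with those of the other Hereford arrays (Pearson r across probes from 0.061 to 0.41) than Holstein-Friesian arrays did with each other (0.40 to 0.60), and results that rest on that array are also given without it. The muscle fibre markers were bright in all samples: the summed level of 7 measured markers had a log2 value between 19.6 and 20.1 in every channel. The 8 measured adipocyte markers summed to a log2 level from 10.8 to 12.4. In Holstein-Friesian that sum followed mainly CFD, with a mean log2 level of 11.48 beside 7.98 for FABP4.

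SLC2A1 transcript was higher in Holstein-Friesian than in Limousin muscle and was not separated from Limousin in Hereford. On the 4 Holstein-Friesian arrays, the log2 ratio of Holstein-Friesian over Limousin was 1.08, 0.41, 1.22 and 0.99. On the 4 Hereford arrays, the log2 ratio of Hereford over Limousin was -0.21, 0.04, 0.28 and -0.03. The lowest Holstein-Friesian ratio thus lay above the highest Hereford ratio, a separation also seen, in either direction, for 14% of the 17061 probes tested. The mean log2 ratio in Holstein-Friesian was 0.93 ± 0.35 (SD, n = 4), a 1.90-fold difference with a 95% interval of 1.54-fold to 2.35-fold (limma, adjusted p = 0.0105 over all probes). It was the only 1 of the 4 measured genes called in this comparison, in which 6.45% of all probes were called at an adjusted p under 0.05, 3% higher and 3.45% lower. Its absolute log2 difference was larger than that of 98.1% of the probes. In Hereford the mean log2 ratio was 0.02 ± 0.20 (SD, n = 4; limma adjusted p = 0.953), with an interval of 0.82-fold to 1.25-fold.

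The difference between the breeds was tested as a limma contrast of the 2 breed means, each against the shared Limousin bulls. This contrast, also used for the breed differences below, did not use the pairing of arrays by Limousin bull. The Hereford ratio of SLC2A1 minus the Holstein-Friesian ratio was -1.29, -0.37, -0.94 and -1.03 on the log2 scale for Limousin bulls 1 to 4, below 0 for each of them. The mean of -0.91 (95% interval -1.34 to -0.47) had a limma adjusted p of 0.0482, in a comparison that called 2.71% of all probes, 1.56% higher and 1.15% lower in Hereford. No adjusted p under 0.05 was obtained for this difference when any 1 of the Limousin bulls was left out (0.104 to 0.267), when breeds were set against Limousin read in the same dye (log2 value -1.04, adjusted p = 0.0642) or without the filter on dim probes (adjusted p = 0.0558).

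**Figure D1:**
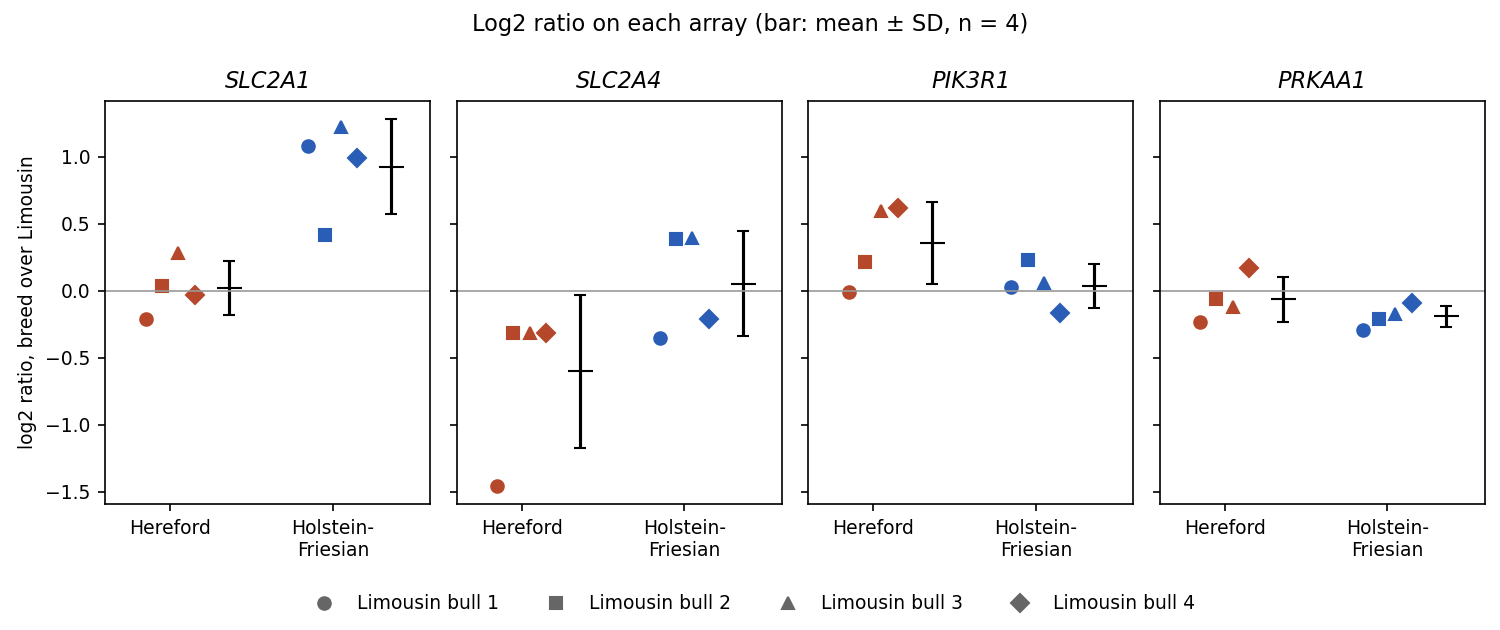
Log2 ratio of breed over Limousin on each array for the 4 measured genes, with 1 marker shape per Limousin bull and a bar for the mean ± SD of 4 arrays. SLC2A1 ratios lay between 0.41 and 1.22 in Holstein-Friesian and between -0.21 and 0.28 in Hereford, and SLC2A4 had 1 Hereford array at -1.46 and the other 3 at -0.32.

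The probe for SLC2A1 was dim. Its background-subtracted brightness in Holstein-Friesian ran from 44 to 161 intensity units, although it was well above background in all 16 readings. On the 4 arrays the Holstein-Friesian and Limousin values were 160.75 and 99.25, 44 and 63.25, 102.5 and 102.25, and 96.75 and 85.75. These are values before dye normalization, while the log2 ratios above are values after it. With a normexp offset of 16 in place of 50 the mean log2 ratio in Holstein-Friesian was 1.20 in place of 0.93 (limma adjusted p = 0.0055). With the scanner's own processed signals, which replace the background correction and the dye normalization together, it was 1.76 (adjusted p = 0.0032). Without replicate 3 the ratio was 0.83 and the call was lost (limma adjusted p = 0.0524), as it was without replicate 4 (0.90, adjusted p = 0.0825).

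Read as normalized levels in each channel, SLC2A1 had a mean log2 intensity of 7.86 ± 0.51 (SD, n = 4) in Holstein-Friesian, against 6.94 ± 0.22 in Limousin read in Cy5, 6.89 ± 0.13 in Hereford and 6.87 ± 0.13 in Limousin read in Cy3. The last 3 groups in this order differed by less than their spread. Across dyes and slides the same Limousin bulls differed by a mean of 0.07 for SLC2A1 (Cy5 minus Cy3; limma adjusted p = 0.507). None of the 4 genes was called in this check of dye and slide, beside 4.71% of all probes. When Holstein-Friesian in Cy3 was set against Limousin in Cy3 from the other slide, the log2 difference was 0.99 (limma adjusted p = 0.0141).

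Markers of other cell types were read beside this result, since SLC2A1 is not particular to muscle fibres. All 4 measured macrophage markers of 8 listed (CD68, CD14, AIF1 and C1QA) had mean log2 ratios above 0 in Holstein-Friesian, with a median of 0.55, and below 0 in Hereford, with a median of -0.31. None of the 4 was called in either comparison. Their summed log2 level ranged from 11.6 to 13.2 in Holstein-Friesian, from 10.67 to 11.5 in Hereford, from 11.1 to 12.2 in Limousin read in Cy3 and from 10.8 to 11.9 in Limousin read in Cy5. That sum followed mainly C1QA, whose mean log2 level in Holstein-Friesian was 12.07, beside 8.32 for AIF1, 7.65 for CD14 and 6.67 for CD68. Their part in the SLC2A1 result was not tested. The 5 measured endothelial markers had a median log2 ratio of 0.04 in both breeds, with 0 called. All 5 were above 0 in Holstein-Friesian, from 0.004 to 0.28. In Hereford 3 were above 0 and 2 below, from -0.39 to 0.71. Both measured erythrocyte genes, HBA and HBB, had mean log2 ratios from 0.09 to 0.15 in the breed comparisons. HBA ran from -0.92 to 1.57 on the Hereford arrays, and HBB was well above background in 10 of the 16 readings.

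SLC2A4, the insulin-responsive transporter, was lower in Hereford than in the paired Limousin bull on every array, but this difference did not pass the test. The log2 ratio of Hereford over Limousin was -1.46, -0.32, -0.32 and -0.32. The first array stood far below 3 arrays that were nearly equal. The mean was -0.60 ± 0.57 (SD, n = 4; limma adjusted p = 0.135), with a 95% interval of -1.10 to -0.11 before adjustment. Without replicate 1 it was -0.32 (limma adjusted p = 0.195). A shared sign on all 4 Hereford arrays was found for 27.7% of all probes, and 7.14% of all probes were called in this comparison (3.39% higher, 3.75% lower), which had 0 calls among the 4 measured genes. SLC2A4 and PIK3R1 were at an unadjusted p under 0.05 there, as were 24.2% of all probes.

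In Holstein-Friesian the log2 ratio of SLC2A4 over Limousin was -0.36, 0.38, 0.40 and -0.21. The arrays fell on both sides of 0, and the mean was 0.05 ± 0.39 (SD, n = 4; limma adjusted p = 0.920, interval 0.73-fold to 1.46-fold). Subtracting the ratios of each Limousin bull gave Hereford minus Holstein-Friesian values of -1.10, -0.70, -0.71 and -0.10. All 4 were below 0, and 35.7% of all probes had a shared sign in this difference. The mean of -0.65 had a limma adjusted p of 0.266.

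The mean log2 level of SLC2A4 was 13.80 ± 0.24 (SD, n = 4) in Limousin read in Cy3, 13.60 ± 0.15 in Holstein-Friesian, 13.55 ± 0.38 in Limousin read in Cy5 and 13.20 ± 0.34 in Hereford. Neighbours in this order differed by about their spread or less. On the first Hereford array the Hereford bull stood at 12.70, below the 13.31 to 13.42 of the other 3, and Limousin bull 1 stood at 14.16, above the 13.63 to 13.74 of the other Limousin bulls. The same Limousin bull also had the highest Limousin level on the other slide, 14.04 against 13.18 to 13.63. The low ratio of the first array thus came with a low Hereford and a high Limousin level. Each Limousin bull read lower in Cy5 than in Cy3, by 0.11 to 0.45 (mean difference -0.25, limma adjusted p = 0.103), and Hereford was the breed read in Cy5. Against Limousin read in the same dye, the log2 difference was -0.35 in Hereford (limma adjusted p = 0.412) and -0.20 in Holstein-Friesian (adjusted p = 0.641).

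**Figure D2:**
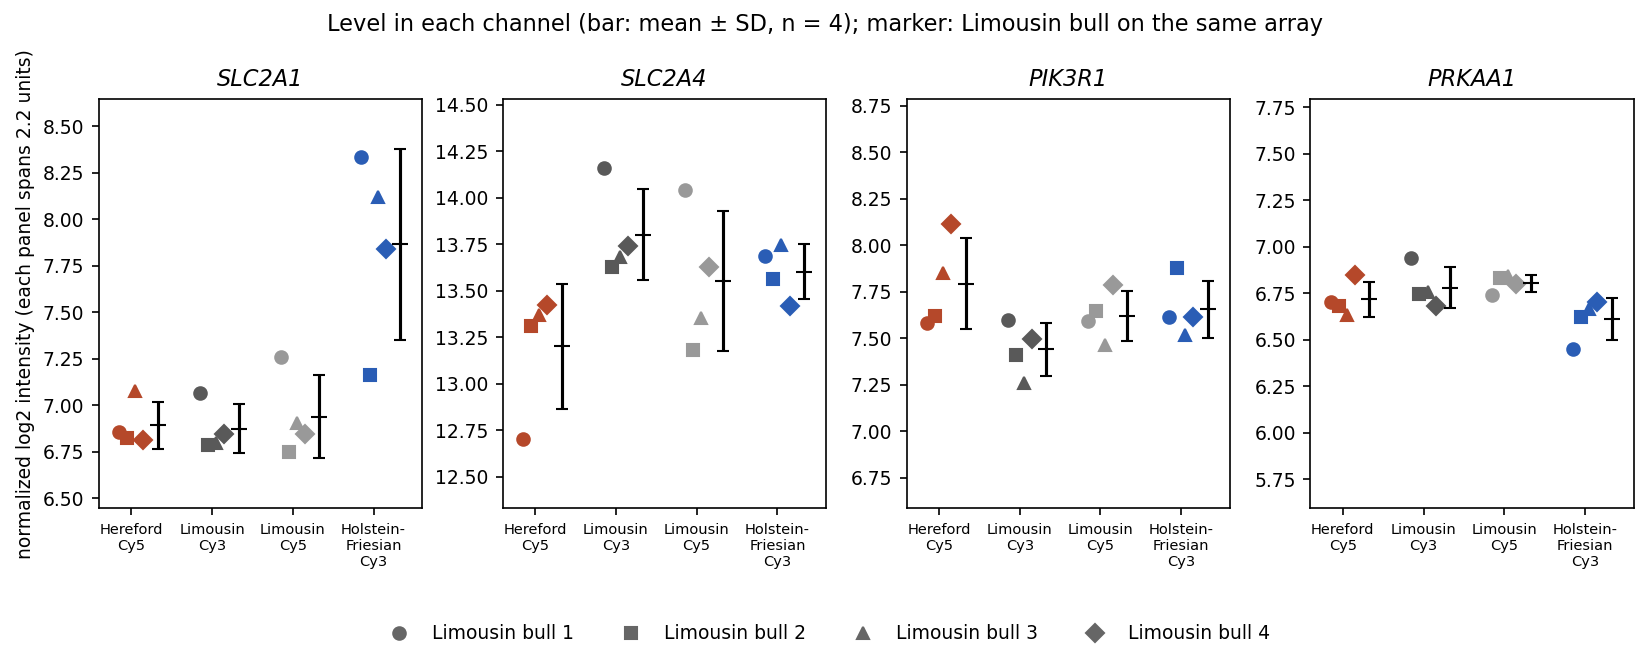
Normalized log2 intensity of each gene in each channel, with markers giving the Limousin bull on the same array and bars the mean ± SD of 4 bulls. Every panel spans 2.2 log2 units. The level axes are not comparable between genes. SLC2A1 was highest in Holstein-Friesian (mean 7.86), and Limousin bull 1 had the highest Limousin level of SLC2A4 on both slides (14.16 and 14.04).

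The 3 genes whose log2 ratios over the 8 arrays followed those of SLC2A4 most closely, among 6641 genes with a symbol and a value on every array, were HS3ST5, a heparan sulfate sulfotransferase (Pearson r = 0.979), MPHOSPH10, a protein of the U3 small nucleolar ribonucleoprotein (0.976), and POLR1E, a subunit of RNA polymerase I (0.971). Without the first Hereford array the values over 7 arrays were 0.939, 0.959 and 0.946, which ranked 8, 3 and 6 among all genes, so which genes came closest rests in part on that array. The arrays share the Limousin bulls and the slides, and these coefficients are a description of likeness.

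PIK3R1 encodes the regulatory subunit that holds the PI3-kinase catalytic subunit and docks it on IRS proteins. Its log2 ratio of Hereford over Limousin was -0.01, 0.21, 0.59 and 0.62. The values spread from no difference to 1.54-fold, with 3 of 4 above 0. The mean was 0.35 ± 0.31 (SD, n = 4; limma adjusted p = 0.107). In Holstein-Friesian the ratios were 0.02, 0.23, 0.05 and -0.17, with a mean of 0.04 ± 0.16 (limma adjusted p = 0.894, interval 0.85-fold to 1.23-fold). The ratios of the breeds overlapped, and the difference between them was 0.32 (95% interval -0.06 to 0.69, limma adjusted p = 0.308). With median centring the difference was 0.74 and called (limma adjusted p = 0.0327). In that setting the all-probe median of the difference was 0.36, and 6219 of 17061 probes were called. Against Limousin in the same dye the PIK3R1 difference was -0.04. In channel levels, Hereford had the highest mean log2 value, 7.79 ± 0.25, followed by Holstein-Friesian at 7.66 ± 0.15, Limousin in Cy5 at 7.62 ± 0.13 and Limousin in Cy3 at 7.44 ± 0.14, and neighbours differed by about their spread or less.

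PRKAA1 encodes the alpha 1 catalytic subunit of AMPK, the energy-sensing kinase. In Holstein-Friesian its log2 ratio over Limousin was -0.29, -0.21, -0.17 and -0.10, below 0 on all 4 arrays, where 36.5% of all probes had a shared sign. The mean was -0.19 ± 0.08 (SD, n = 4; limma adjusted p = 0.160, interval 0.78-fold to 0.98-fold before adjustment). In Hereford it was -0.24, -0.06, -0.12 and 0.17, with a mean of -0.06 ± 0.17 (limma adjusted p = 0.669). The ratios overlapped between the breeds, and the difference was 0.13 (adjusted p = 0.525). The probe was dim in Cy3, with 13.5 to 21.3 background-subtracted units in Holstein-Friesian, and the scanner's processed signals gave a Holstein-Friesian mean of -0.60 (limma adjusted p = 0.0502). In channel levels, the means ran from 6.80 ± 0.04 (SD, n = 4) in Limousin read in Cy5 and 6.78 ± 0.11 in Limousin read in Cy3 to 6.72 ± 0.09 in Hereford and 6.61 ± 0.11 in Holstein-Friesian, with neighbours apart by about their spread or less.

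For both marbled breeds together, each Limousin bull gave 1 value, the mean of its Hereford and Holstein-Friesian ratios, so that a dye effect common to both slides cancels. For SLC2A1 these values were 0.43, 0.22, 0.75 and 0.48, all above 0, where 28.4% of all probes had a shared sign. Their mean was 0.47 ± 0.22 (SD, n = 4; limma adjusted p = 0.0900), and 0.598% of all probes were called. With the Limousin bull as a replicate block over all 8 arrays, the mean of 0.47 had a limma adjusted p of 0.0481; the bulls' deviations on the slides were positively correlated for each pair. The other means were 0.19 for PIK3R1 (limma adjusted p = 0.223), -0.13 for PRKAA1 (0.373) and -0.27 for SLC2A4 (0.493). None of the 4 genes was called by this fit, and SLC2A1 and PIK3R1 were at an unadjusted p under 0.05, as were 19.6% of all probes.

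The rest of the pathway was read from 4 lists of genes around the measured members. Of 99 listed genes 45 had a named probe and 41 were measured. In Hereford 6 of the 41 were called, 3 higher and 3 lower, or 14.6% beside 7.14% of all probes. In Holstein-Friesian 6 were called, also 3 higher and 3 lower, again 14.6%, beside 6.45%. The lists were chosen with earlier results of these data known, so these shares are no test of the pathway. Each listed gene was read from its brightest kept probe, while the shares beside them cover all kept probes, named or not. The median log2 ratio of the 41 was -0.03 in both breeds, beside 0.01 and -0.01 for all probes. STRADA was the only 1 of the 11 genes called in either breed that was called in both, and its directions were opposite.

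Among genes from the insulin receptor to AKT and its targets, 16 of 41 listed were measured. The Tribbles pseudokinase TRIB1, a scaffold of the COP1 ubiquitin ligase, was 3.79-fold higher in Holstein-Friesian. Its log2 ratios were 2.28, 2.02, 1.32 and 2.06 there (limma adjusted p = 0.00302) and 0.27, 1.07, 0.83 and 0.41 in Hereford. All 8 were above 0, the Hereford mean of 0.64 did not pass (adjusted p = 0.0660), and the Hereford values were below the Holstein-Friesian ones by 1.28 (adjusted p = 0.0431). TRIB1 was also the only pathway gene called for both breeds together (log2 ratio 1.28, limma adjusted p = 0.0354), a call lost when any 1 Limousin bull was left out (0.0692 to 0.183). The Holstein-Friesian call of TRIB1 was kept under all 13 alternatives, and that of the breed difference under 7 of 12. With median centring the difference was -0.44 (limma adjusted p = 0.355).

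TRIB2, a related pseudokinase, was higher in Holstein-Friesian by 0.61 on the log2 scale (limma adjusted p = 0.0110), and a dimmer probe of the gene gave 0.25 (adjusted p = 0.0393). With median centring TRIB2 was at 0.13 and not called (adjusted p = 0.457). GSK3B, the kinase that restrains glycogen synthase and is inhibited by AKT, was lower there on all 4 arrays, by a mean log2 ratio of -0.40 (adjusted p = 0.0123). Its Hereford mean was 0.12, and the breeds differed by 0.52 (adjusted p = 0.0315). In Hereford, PIK3CA, the catalytic partner of PIK3R1, had log2 ratios of 0.12, 0.96, 0.58 and 0.88 and a mean of 0.63 (limma adjusted p = 0.0292). In Holstein-Friesian its ratios lay from -0.16 to 0.11. The Hereford call of PIK3CA was lost against Limousin in the same dye. SHC1, an adaptor between the receptor and RAS, had a Hereford mean of -0.54 (adjusted p = 0.0440), with 3 of 4 arrays below 0. A dimmer SHC1 probe gave 0.04 (adjusted p = 0.772), so the probes of this gene disagreed, and with the Limousin bull as a replicate block the first probe was not called (adjusted p = 0.0542). The median log2 ratio of the 16 genes was -0.10 in Hereford and 0.02 in Holstein-Friesian.

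**Figure D3:**
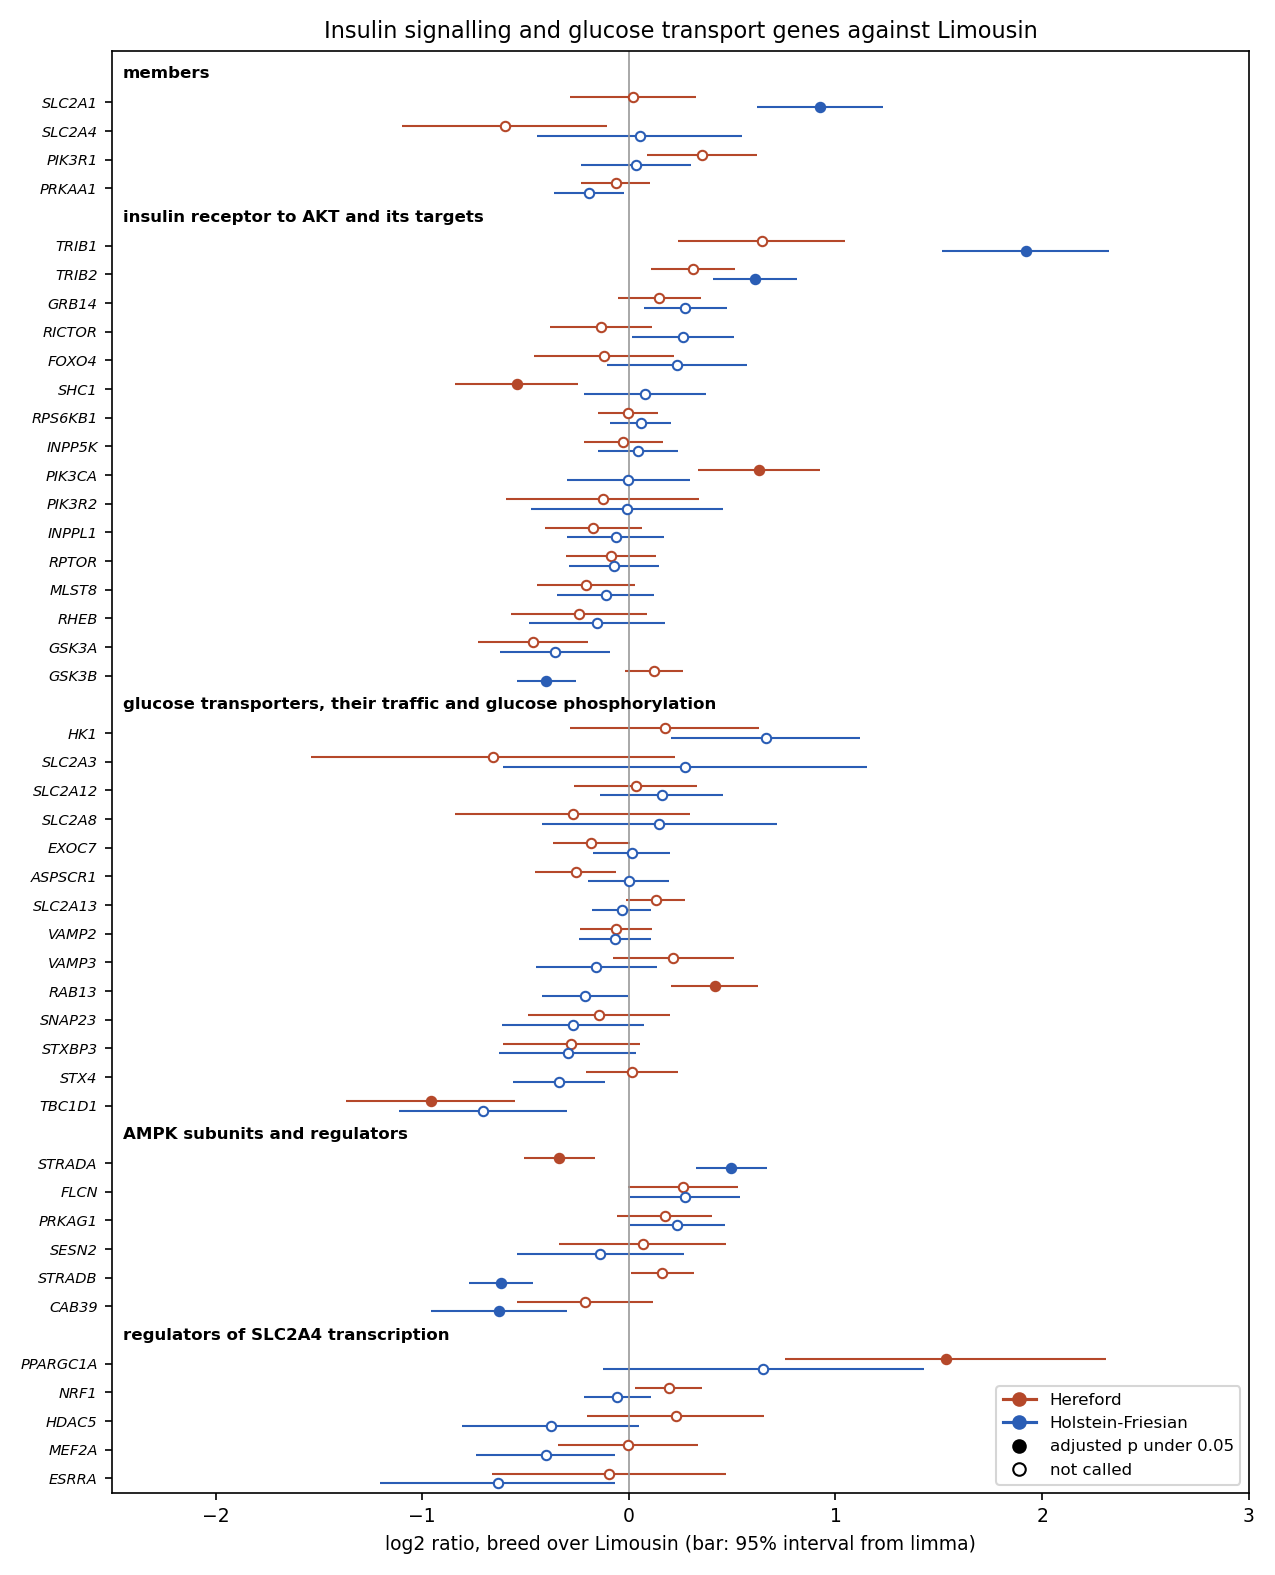
Mean log2 ratio of breed over Limousin, with its 95% interval from limma, for the 4 measured genes and the 41 measured genes of the pathway lists. Filled points have an adjusted p under 0.05. TRIB1 was at 1.92 in Holstein-Friesian, TBC1D1 at -0.96 in Hereford, and STRADA was filled on opposite sides of 0 in the 2 breeds.

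Of 29 listed genes for glucose transporters, their vesicle traffic and glucose phosphorylation, 14 were measured. TBC1D1, the muscle relative of TBC1D4 and a target of AKT and AMPK, had Hereford log2 ratios of -0.26, -1.13, -1.38 and -1.06, with a mean of -0.96 (limma adjusted p = 0.0234). In Holstein-Friesian they were -0.31, -0.99, -0.80 and -0.73. All 8 ratios were below 0, and those of Limousin bull 1 were nearest to 0 on both slides. The Holstein-Friesian mean of -0.71 (limma adjusted p = 0.0558) and the mean for both breeds of -0.83 (adjusted p = 0.0765) did not pass. The first was called under 9 of 13 alternatives and the second under 5 of 12. With the Limousin bull as a replicate block both were called (limma adjusted p = 0.0444 and 0.0167). These alternatives are not independent. For both breeds together, Limousin in the same dye repeats the reported fit by construction, and processed signals and deposited values both hold the scanner's ratios. RAB13, a Rab of the GLUT4 vesicle route, was higher in Hereford, with log2 ratios of 0.54, 0.42, 0.31 and 0.39 (mean 0.41, limma adjusted p = 0.0349). In Holstein-Friesian they were -0.06, -0.55, -0.02 and -0.21, and the breed difference of 0.63 had an adjusted p of 0.0467, a call kept under 4 of 12 alternatives. It was not called with processed signals (adjusted p = 0.0923), the deposited values (0.0914), an offset of 16 (0.0603), the filter on all 16 readings (0.0526) or any 1 Limousin bull left out (0.0789 to 0.245).

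None of the 14 was called in Holstein-Friesian. STX4, the surface SNARE that receives GLUT4 vesicles, was at -0.34 there (limma adjusted p = 0.0787), and its regulator STXBP3 was at -0.29 for both breeds together (adjusted p = 0.247). The median log2 ratio of the 14 genes was -0.10 in Hereford and -0.05 in Holstein-Friesian.

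In the list of AMPK subunits and regulators 6 of 19 genes were measured. In Hereford 1 of the 6 was called, beside 7.14% of all probes, and in Holstein-Friesian 3 of the 6, beside 6.45%. STRADA, a pseudokinase that binds and activates LKB1, a kinase upstream of AMPK, had log2 ratios of -0.13, -0.46, -0.38 and -0.38 in Hereford (mean -0.34, limma adjusted p = 0.0360). In Holstein-Friesian it had 0.49, 0.61, 0.57 and 0.31 (mean 0.49, adjusted p = 0.0116). The breeds did not overlap, as was the case for 14% of all probes, and differed by -0.83 (limma adjusted p = 0.0171). Its relative STRADB had the reverse order, with 0.22, 0.19, 0.13 and 0.11 in Hereford and -0.61, -0.41, -0.68 and -0.77 in Holstein-Friesian. STRADB was called in Holstein-Friesian (mean -0.62, limma adjusted p = 0.00523) and for the breed difference (0.78, adjusted p = 0.0151), not in Hereford. CAB39, the scaffold protein MO25 of the same complex, was at -0.63 in Holstein-Friesian (adjusted p = 0.0409). For both breeds together neither STRADB (-0.23) nor CAB39 (-0.42) was called. The Holstein-Friesian call of STRADB was kept under all 13 alternatives. STRADA was at 0.01 there with median centring (limma adjusted p = 0.938) and at 0.22 against Limousin in the same dye (adjusted p = 0.0924), and its Hereford call was kept under 3 of 13 alternatives. Against Limousin in the same dye the Hereford value of STRADA was -0.066 (limma adjusted p = 0.640) and the breed difference -0.29 (0.150), and with median centring these were -0.12 (0.630) and -0.13 (0.590). The breed difference of STRADB was 0.43 against Limousin in the same dye and was not called (adjusted p = 0.148).

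Of 10 listed regulators of SLC2A4 transcription 5 were measured. PPARGC1A, the coactivator PGC-1 alpha of oxidative metabolism, was 2.89-fold higher in Hereford. Its log2 ratios were 0.48, 1.59, 2.26 and 1.80 (mean 1.53, limma adjusted p = 0.0353), and a dimmer probe gave 0.58 (adjusted p = 0.0194). In Holstein-Friesian it had 1.40, -0.01, 1.27 and -0.06, with 2 arrays near 0 and 2 well above it. For both breeds together the mean was 1.09 (adjusted p = 0.0688), called under 5 of 12 alternatives. The other named regulators were not called. MEF2A, a factor that binds the SLC2A4 promoter, was at -0.40 in Holstein-Friesian (limma adjusted p = 0.147). The nuclear receptor ESRRA was at -0.63 there (adjusted p = 0.169) and at -0.37 for both breeds together. NRF1 and the deacetylase HDAC5 differed between the breeds by 0.25 and 0.61 (adjusted p = 0.206 and 0.237).

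Fibre type markers were read beside these genes. All 7 measured slow fibre markers of 10 listed had mean log2 ratios above 0 in both breeds, with medians of 1.37 in Hereford, where 4 of 7 were called beside 7.14% of all probes, and 0.88 in Holstein-Friesian, where 1 of 7 was called beside 6.45%. Their summed log2 level was 18.7 to 19.3 in Hereford against 17.5 to 18.0 in Limousin in Cy3, and 18.6 to 19.8 in Holstein-Friesian against 17.8 to 18.5 in Limousin in Cy5. In Hereford the calls included the slow myosin light chains MYL3 (1.98) and MYL2 (1.37) and the slow calcium pump ATP2A2 (1.61). The call of MYL2 was kept under 3 of 13 alternatives, and those of MYL3 and ATP2A2 each under 11 of 13. With the replicate block MYL2 was not called (limma adjusted p = 0.0569). The 7 measured general fibre markers were above 0 in Hereford, with a median of 0.41 and 0 called. Their summed log2 level had a mean of 20.05 in Hereford, which was read in Cy5. It was 19.66 in Limousin read in Cy3 and 20.04 in Limousin read in Cy5, so Hereford was close to Limousin in the same dye. In Holstein-Friesian 3 of these markers were above 0 and 4 below, with a median of -0.08. The 2 called there were myoglobin (MB) at -1.02 (limma adjusted p = 0.0167) and the fast troponin TNNC2 at -0.68 (0.0187), while the fast myosins MYH1 and MYH2 were at 0.04 and 0.51 and not called. Against Limousin in the same dye neither MB (-0.56, adjusted p = 0.114) nor TNNC2 (-0.11, 0.477) was called.

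Of the 8 measured adipocyte markers 6 were below 0 in Holstein-Friesian, with a median of -0.20, and CFD was the only 1 called (1.17, limma adjusted p = 0.0166). LEP, 1 of these 6 at -0.02, was well above background in 0 of the 4 Holstein-Friesian readings, so its direction there carries no weight. In Hereford 5 were above 0 and 3 below, with a median of 0.03 and 0 called. Of the 7 fibroblast markers 5 were below 0 in Holstein-Friesian, with a median of -0.66, and COL3A1 was called (-2.53, adjusted p = 0.0125). In Hereford 4 were below 0, with a median of -0.20 and 0 called. The part of these markers in the results for SLC2A4, PPARGC1A, TBC1D1 and the others was not tested.

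The 6 Hereford pathway calls were all lost when the Hereford arrays were fitted alone, with median centring, or without replicate 2, 3 or 4, while 5 of the 6 were kept without replicate 1, which holds the array that stood apart. Without replicates 2, 3 or 4 their limma adjusted p ran from 0.0769 (RAB13) to 0.224 (SHC1). Against Limousin in the same dye 3 of the 6 Hereford calls were kept (PPARGC1A, RAB13 and TBC1D1). With processed signals, and likewise with the deposited values, 3 were kept (PIK3CA, PPARGC1A and TBC1D1). Of the 6 Holstein-Friesian calls, all were kept when its arrays were fitted alone, 4 were kept against Limousin in the same dye (TRIB1, TRIB2, STRADB and GSK3B), and 2 (TRIB1 and STRADB) were kept without replicate 3 or without replicate 4. Without replicate 2, GSK3B (-0.41, limma adjusted p = 0.0831), STRADA (0.46, 0.0813) and CAB39 (-0.65, 0.171) were not called. None of the 5 pathway calls for the breed difference was kept without replicate 2, 3 or 4.

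**Figure D4:**
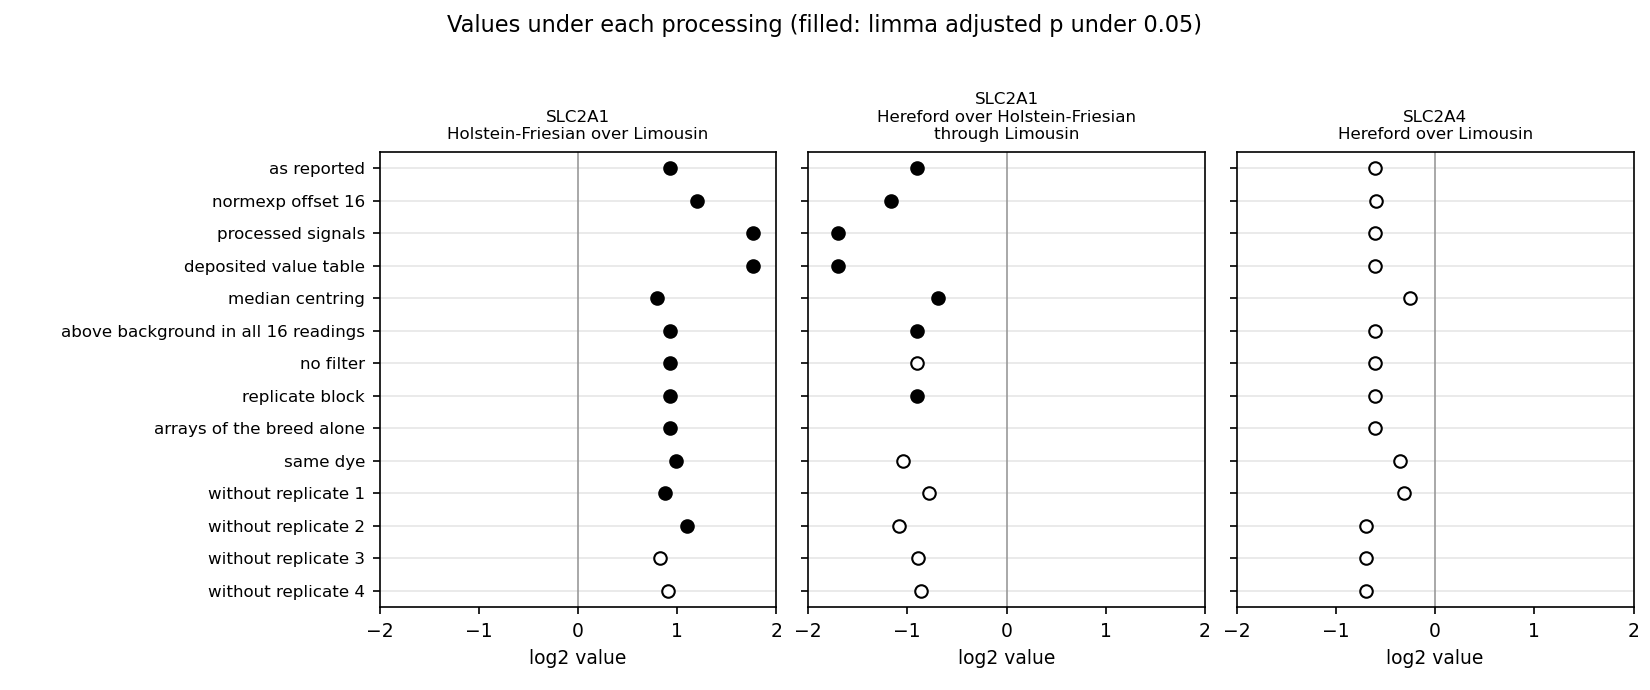
Log2 value of SLC2A1 in Holstein-Friesian, of its difference between the breeds, and of SLC2A4 in Hereford as reported and under each alternative, with filled points for a limma adjusted p under 0.05. SLC2A1 stayed between 0.79 and 1.76 in Holstein-Friesian, and SLC2A4 in Hereford was below 0 throughout with no filled point.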

How the data were processed

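Total RNA was measured on 8 two-colour Agilent bovine arrays. Per the file headers, Feature Extraction 10.7.3.1 gave median spot and background brightness and processed signals as intensity, plus flags for background and outliers. The authors' deposited values were the scanner's log10 ratio of Cy5 over Cy3 in 44407 of 44407 spots, so the Holstein-Friesian arrays ran as Limousin over Holstein-Friesian although the series text calls them turned. Ratios were turned here to breed over Limousin.

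Background was corrected with normexp (offset 50) and arrays with loess (span 0.3) in limma 3.58.1 (R 4.3.3, statmod 1.5.0, the data.table package at 1.17.8, jsonlite 2.0.0). Control and outlier spots were left out and the spots of a probe averaged (21475 probes, 17061 kept). Log2 ratios made in this way from the median spot brightness were tested with lmFit and eBayes over all kept probes, with Benjamini-Hochberg adjustment. Breed means came from all 8 arrays, and values for both breeds from 4 bull means. Channel levels were scaled with Aquantile. Levels of the 4 measured genes were not set against each other, while marker levels were summed over the probes of a list. The number of arrays limits precision. The offset shrinks the ratios of dim probes.

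Symbols came from RefSeq transcript accessions (assembly ARS-UCD2.0, names only; array annotation Btau_3.1 per the file headers). They named 8297 probes, and a gene was read from its brightest kept probe. The members and lists were chosen with earlier results of these data known. Named genes were the members, the called genes of each pathway list (at most 8) or else the 2 with the smallest p, the same for marker lists with at most 3, of which only those bearing on a result are given, and the 3 genes most like SLC2A4. The replicate number marks the Limousin bull per the labels' source names; same-numbered arrays deviated together (r = 0.41, 0.27, 0.50 and 0.10). The fits were run on simulated data with independent arrays, which lack the pairing by Limousin bull, and the breed difference was not examined there. Plots used matplotlib 3.10.9.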

Additional observations from a re-analysis of the deposited data

Results flagged for a closer look

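Of 58 groups of 4 arrays looked at, 3 had 1 array whose gap to the others was above Dixon's 95% critical value, and chance alone flags about 1 in 20 groups. SLC2A4 stood at -1.46 on the first Hereford array against -0.32 on the other 3. ESRRA stood at -0.83 on the fourth Hereford array against 0.06 to 0.22. COL3A1 stood at -4.23 on the third Holstein-Friesian array against -2.14 to -1.75.

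The log2 ratio in Hereford differed from that in Holstein-Friesian for 9 of 29 genes looked at, beside 2.71% of all probes. The test was the limma contrast of the 2 breed means, without the pairing by Limousin bull. Those genes were the measured members, the named pathway genes and the called markers, many of them chosen for a call in a breed comparison or in this contrast, so the count follows from the choice. Hereford was the lower for SLC2A1 (-0.91, adjusted p = 0.0482), TRIB1 (-1.28, 0.0431), STRADA (-0.83, 0.0171) and CFD (-1.58, 0.0349). It was the higher for GSK3B (0.52, limma adjusted p = 0.0315), RAB13 (0.63, 0.0467), STRADB (0.78, 0.0151), MB (1.43, 0.0341) and TNNC2 (1.16, 0.0231). In this contrast a dye effect adds up, and breed, dye and slide cannot be told apart. Against Limousin in the same dye, 2 of the 5 pathway genes (RAB13 and TRIB1) kept the call, while STRADA (-0.29), STRADB (0.43), GSK3B (0.57) and SLC2A1 (-1.04) did not. None of the markers kept it: TNNC2 was at 0.018 (limma adjusted p = 0.952), MB at 0.50 (0.324) and CFD at -1.25 (0.0685). Without replicate 2, 3 or 4 none of the 5 pathway genes did.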

How the results depend on the processing

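Probes called, of 17061, numbered 1218 in Hereford, 1100 in Holstein-Friesian, 102 for both breeds and 463 for the breed difference. Scanner processed signals gave 2157, 444 and 974 for the last 3, and the deposited values gave 2129, 438 and 979. For both breeds, offset 16 gave 364, the filter on all 16 readings 371 and no filter 42. Median centring gave 315, 6678, 950 and 6219, with 87.0%, 29.0%, 23.1% and 78.1% higher in place of 47.5%, 46.5%, 53.9% and 57.5%; it left all-probe medians at 0.10 in Hereford, -0.20 in Holstein-Friesian and 0.36 for the difference, and values under it are relative to these. The deposited table put 67.6% of difference calls higher. The replicate block (consensus correlation 0.31), which uses the pairing by Limousin bull, gave 910 for both breeds and 1714 for the difference; beside the calls given above for SLC2A1, SHC1, TBC1D1 and MYL2 it changed, among named genes, that of MYH7 for both breeds (adjusted p = 0.0526). Hereford arrays alone gave 27. Limousin in the same dye gave 635 in Hereford and 237 for the difference, while for both breeds it repeats the reported fit by construction. Leaving out each Limousin bull gave 30 to 1055, 78 to 810, 0 to 1 and 0 to 457. Where limma called 0, unadjusted p under 0.05 was reached by 3340, 2339 and 2420 probes for both breeds (without replicates 1, 2 and 4) and 2366 and 2217 for the difference (without 2 and 4).

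Signs turned for values that were not called: with median centring PIK3R1 (-0.20) and SLC2A4 (-0.61) in Holstein-Friesian and SLC2A4 for the difference (0.36); with the same dye SLC2A1 in Hereford (-0.047), SLC2A4 in Holstein-Friesian (-0.20), and PIK3R1 (-0.044), NRF1 (-0.046) and HDAC5 (-0.053) for the difference; with a Limousin bull left out PIK3R1 (-0.030 to 0.10) and SLC2A4 (-0.063 to 0.19) in Holstein-Friesian and SLC2A1 in Hereford (-0.068 to 0.096). The cause was not tested. Of the values of named genes under alternatives, 543 kept direction and side of the threshold, 155 lost the call, 30 gained it and 12 turned. SLC2A1 for both breeds gained it with processed signals (0.91), the deposited table, median centring and the block. Each measured member had 1 probe, so another probe could not be tried. Dim probes limit SLC2A1 and PRKAA1.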

Other observations

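Some pathway genes outside the rule for named genes were picked after their values were seen. GSK3A, the paralog of GSK3B, had a log2 ratio below 0 on all 4 arrays of each breed, with a mean of -0.47 in Hereford (limma adjusted p = 0.0504) and -0.36 in Holstein-Friesian (0.110). HK1, a hexokinase that phosphorylates glucose after uptake, was above 0 on all 4 Holstein-Friesian arrays, from 0.07 to 1.35, with a mean of 0.66 (limma adjusted p = 0.0910). SLC2A3, a further glucose transporter, had means of -0.66 in Hereford and 0.27 in Holstein-Friesian, with arrays on both sides of 0 in each breed (limma adjusted p = 0.347 and 0.730).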
